A study of Mus musculus with 12 samples.

Results

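The 66 genes described here had a lower level in every LSD1cKO library than in any LSD1WT library. A level is given in CPM, a gene's read count per 1000000 counts of its library, with no other scaling. A gene was taken when its mean CPM over the 12 libraries was at least 1 and its highest CPM in the 6 LSD1cKO libraries lay below its lowest CPM in the 6 LSD1WT libraries, and Kdm1a, the deleted gene, was left out. The genes were thus chosen by the measured levels of the genotype contrast itself. Of the 12512 genes with a mean CPM of at least 1, 67 met the rule with Kdm1a counted, or 0.535%, and 66 without it, or 0.527%. Nothing is read from that share. The opposite pattern, a level higher in every LSD1cKO library, was found for 310 genes, or 2.48%. Since the genotype contrast chose them, no genotype test is given for the 66 genes, and their genotype differences are descriptions.

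The libraries were made from polyA RNA of preosteoclasts, the precursors of the bone-resorbing osteoclast, which were grown out of marrow cells. All donors were female mice, either LSD1WT or LSD1cKO. In LSD1cKO mice the floxed LSD1 gene was deleted by Cre driven from the LysM promoter, which is active in myeloid cells. Marrow came from the mandible of mice that had carried silk ligatures around the maxillary second molars for 7 days, from the femur of such mice, or from the femur of mice with no ligature, and all cultures received M-CSF and RANKL for 2 days, so that no group was free of them. Each of these 3 cultures gave 2 libraries per genotype. The sample labels give an age of 2 months, the study's sequencing methods 3 months, and the alleles of LSD1WT mice beyond their name were not given in the sources used here. The labels name 9 mice, 5 LSD1WT and 4 LSD1cKO, of which 1 LSD1WT and 2 LSD1cKO mice supplied libraries from both bones. Replicates are numbered 1 and 2, except the mandible LSD1WT libraries, which are replicates 1 and 3, and replicate 3 has a title that says mandible and a library name that says femur. It was kept as mandible.

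LSD1, the product of Kdm1a, takes methyl groups off lysine 4 of histone H3 and, in some settings, off lysine 9. It works in complexes with CoREST and histone deacetylases and is recruited by GFI1 and GFI1B to silence genes in blood cell lineages. Its removal is therefore best known for raising the expression of silenced genes, and the genes described here are those with lower transcript levels instead.

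Kdm1a itself ran from 59.96 to 72.24 CPM in LSD1WT and from 15.81 to 26.34 CPM in LSD1cKO, so the labels of genotype held in all 12 libraries and the transcript was reduced rather than absent. Total counts ran from 21375805 to 32526751 per library, with a median of 26364586. The femur LSD1WT libraries numbered 2, ligated and unligated, stood apart from the other libraries. Their summed level of 20 osteoclast genes was 1112 and 1320 CPM, against up to 42911 CPM in the other LSD1WT libraries and 15024 to 31974 CPM in LSD1cKO, and their summed level of 12 macrophage genes was 13135 and 11171 CPM, against 1931 to 4892 CPM in LSD1cKO. Ctsk, the protease with which osteoclasts digest collagen, was at 5.38 and 16.5 CPM and Acp5, their acid phosphatase, at 7.58 and 25.2 CPM in these libraries, against LSD1WT medians of 7218 and 4904 CPM, so the data go against the label preosteoclast there. When both were left out, 748 genes met the rule in place of 66, where 12512 genes passed the floor with all 12 libraries in. All 66 were among the 748, as fewer libraries can only loosen the separation. So were 10 of the 20 osteoclast genes. With both libraries in, 0 of the 20 met the rule, beside 0.527% of the 12512 genes. In bulk RNA, fewer cells of a type and less RNA per cell cannot be told apart, and this holds for every level given here. What part the differentiation of the cultures has in the 66 differences was not tested.

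Promoter sequence is shown for 5 of the 66 genes to let the start regions be read beside the levels. Six5 and P4ha2 had the widest separation between genotypes, Hmgcs1 is an early enzyme of cholesterol synthesis, and Vps33a and Fam50a hold motifs that were more frequent in the windows of the 66 genes than in those of all expressed genes. Each line gives the 250 bases before the annotated start of a RefSeq transcript, 5′ to 3′ on the strand of the gene, from build GRCm38.p6. Capitals mark the motif named with each gene, and the coordinates belong to that build and not to GRCm39, on which the reads were counted.
Six5, chr7:19094294-19094543, plus strand, capitals mark GGGCGG: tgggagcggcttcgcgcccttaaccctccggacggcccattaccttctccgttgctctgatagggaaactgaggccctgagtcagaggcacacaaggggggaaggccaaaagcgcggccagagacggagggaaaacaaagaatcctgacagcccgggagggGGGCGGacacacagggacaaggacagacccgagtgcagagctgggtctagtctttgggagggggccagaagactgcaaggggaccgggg
P4ha2, chr11:54100674-54100923, plus strand, capitals mark GGGCGG and its reverse complement: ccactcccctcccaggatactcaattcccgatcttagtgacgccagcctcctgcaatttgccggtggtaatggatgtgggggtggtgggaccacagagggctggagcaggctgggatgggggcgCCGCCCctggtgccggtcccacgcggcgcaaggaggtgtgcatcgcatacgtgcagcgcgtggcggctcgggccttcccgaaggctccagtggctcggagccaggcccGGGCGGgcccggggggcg
Hmgcs1, chr13:119690101-119690350, plus strand, capitals mark the reverse complement of CCAAT: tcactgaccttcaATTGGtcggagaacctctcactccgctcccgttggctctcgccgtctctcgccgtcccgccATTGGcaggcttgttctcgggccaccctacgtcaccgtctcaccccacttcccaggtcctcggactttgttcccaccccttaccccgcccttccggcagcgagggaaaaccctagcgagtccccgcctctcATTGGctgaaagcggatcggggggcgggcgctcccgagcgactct
Vps33a, chr5:123573016-123573265, minus strand, capitals mark CACGTG: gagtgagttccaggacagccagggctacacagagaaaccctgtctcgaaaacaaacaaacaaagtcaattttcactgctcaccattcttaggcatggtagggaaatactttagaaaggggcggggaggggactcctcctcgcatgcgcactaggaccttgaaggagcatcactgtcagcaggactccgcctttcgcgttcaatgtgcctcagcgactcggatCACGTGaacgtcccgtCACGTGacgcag
Fam50a, chrX:74312783-74313032, plus strand, capitals mark CACGTG and TGACGTCA: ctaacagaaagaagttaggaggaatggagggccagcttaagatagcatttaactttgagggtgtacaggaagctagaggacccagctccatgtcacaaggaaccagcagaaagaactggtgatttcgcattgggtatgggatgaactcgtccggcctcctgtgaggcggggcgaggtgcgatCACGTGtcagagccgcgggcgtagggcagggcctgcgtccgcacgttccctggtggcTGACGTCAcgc

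Motifs were counted on both strands in windows of 300 bases, 250 before and 50 after each start, in 66 windows of 53 of the genes and in 11888 windows of 9325 genes with a mean CPM of at least 1. The E-box CACGTG was found in 13 of the 66 windows, or 19.7%, against 10.1% of all windows. The 13 belong to Amigo1, Aspscr1, Cbx8, Eps15l1, Fam50a, Gng7, Natd1, Pepd, Ppp1r9a, Snx8, Stk17b, Utp14b and Vps33a, and Vps33a holds the motif at positions 223 and 239 of the sequence above. The cyclic AMP response element TGACGTCA was found in 5 windows, of Cbx8, Fam50a, Prmt9, Rab11fip3 and Topors, or 7.58% against 2.95%. The SP and KLF box GGGCGG was found in 72.7% against 62.3%, in windows whose median GC content was 63.0% against 60.7%. The other motifs were found at like or lower shares, with CCAAT at 33.3% against 37.9%, the ETS motif CCGGAAG at 13.6% against 18.4%, GAGGAAG, a form that PU.1 binds, at 12.1% against 13.9%, the NRF1 motif at 4.55% against 10.2% and TATAAA at 4.55% against 6.95%. AATCAC, the core that GFI1 proteins read, was found in 7.58% against 8.30%, the core of the interferon-stimulated response element in 1.52% against 3.21%, and the YY1 motif AAGATGGCG in 3.03% against 3.15%. Motifs can overlap one another, a match is a run of letters and not a bound site, and none of these shares was tested.

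The separation between genotypes was narrow for most of the 66 genes. The lowest LSD1WT level divided by the highest LSD1cKO level had a median of 1.048 and reached 1.70. It was at least 1.5 for 2 genes, at least 1.2 for 8 and at least 1.1 for 23. In 9 genes the 95% exact Poisson intervals of these 2 counts were apart, and in 57 they overlapped, intervals that cover counting error only. The mean LSD1cKO level was 15.9% to 89.8% of the mean LSD1WT level, with a median of 69.4%, and lay under 50% in 5 genes, Smo, P4ha2, Six5, Zfp704 and Tha1. Mean levels ran from 1.35 to 234 CPM with a median of 35.8 CPM, close to the median of 30.0 CPM over all 12512 genes, and the lowest read count of any of the 66 genes in any library was 10.

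**Figure D1:**
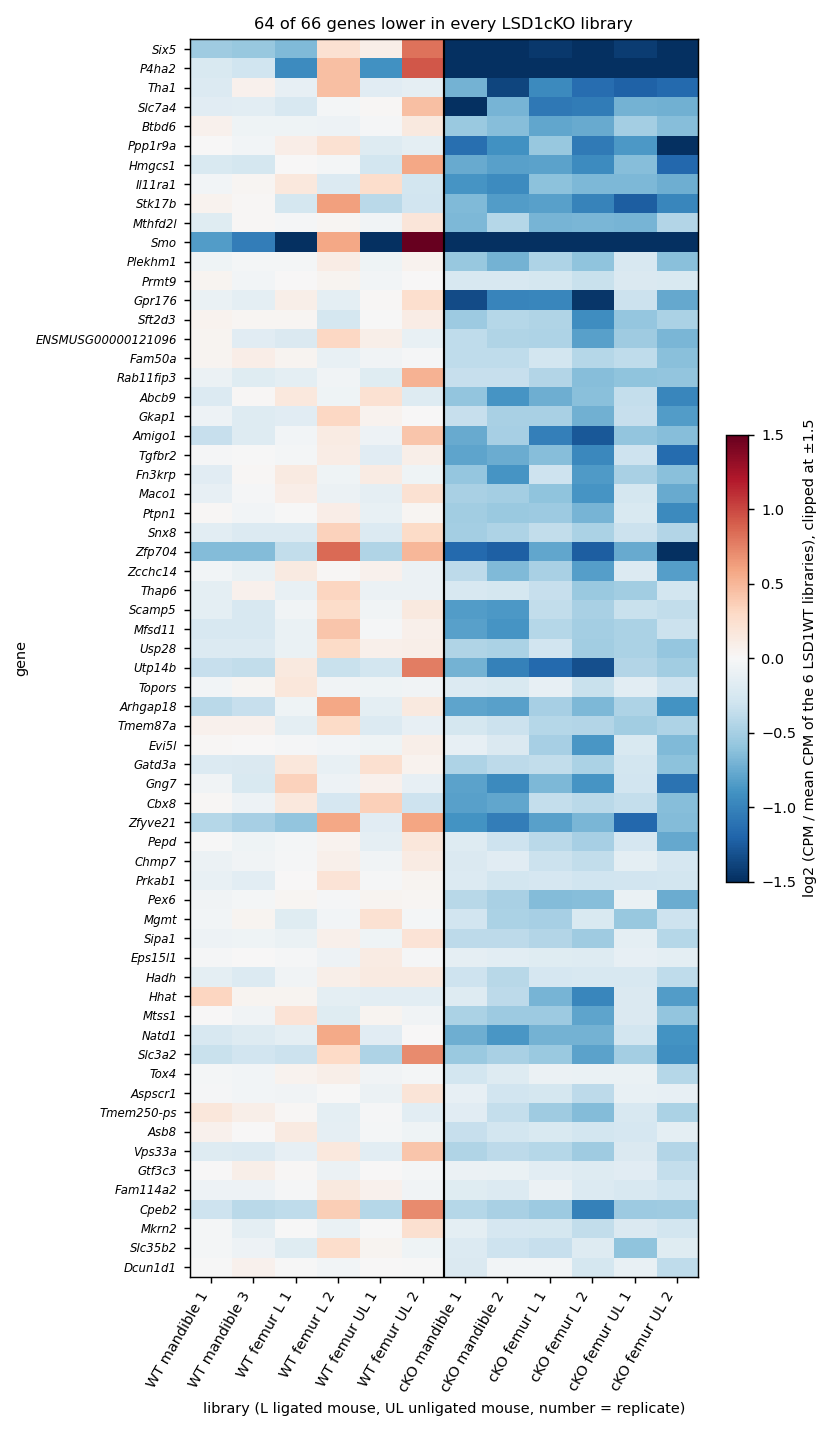
Each row is one of 64 of the 66 genes, ordered by the lowest LSD1WT level over the highest LSD1cKO level, and each column is a library, with LSD1WT left of the line. Colour is the log2 ratio of the CPM to the mean of the 6 LSD1WT libraries, clipped at 1.5 either way. Six5 and P4ha2 lead the order at 1.70 and 1.66, and the LSD1WT femur columns numbered 2 are the darkest red for Smo, P4ha2 and Zfp704.

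The genes are described by role, a grouping made after their values were seen. Levels are listed in replicate order for mandible, ligated femur and unligated femur. The log2 fold change of LSD1cKO against LSD1WT, with its SE, comes from an edgeR model with culture and genotype as terms over the 12 libraries and is a difference on the TMM-scaled level.

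Among genes of signalling at the cell surface, Smo, the transmembrane protein that carries the Hedgehog signal, had an LSD1cKO mean of 15.9% of the LSD1WT mean, the lowest share of the 66 when all 12 libraries were used. Smo in LSD1WT stood at 3.15 and 2.75 CPM in the mandible, 1.54 and 8.37 CPM in the ligated femur and 1.76 and 16.1 CPM in the unligated femur. LSD1cKO values of Smo were 1.30 and 1.105 CPM in the mandible, 0.747 and 0.442 CPM in the ligated femur and 1.28 and 0.5001 CPM in the unligated femur. The LSD1WT mean was set by the femur libraries numbered 2, at 8.37 and 16.1 CPM, and the nearest values of the genotypes, 1.54 and 1.30 CPM, were close. Smo had a log2 fold change of -2.64 ± 0.66, which was -1.89 without the unligated femur LSD1WT library numbered 2 and -1.24 without both femur LSD1WT libraries numbered 2. Without both, P4ha2 at -1.38 and Six5 at -1.27 had lower values than Smo. Hhat, which attaches palmitate to Hedgehog ligands, ran from 1.72 to 2.41 CPM in LSD1WT and from 0.971 to 1.67 CPM in LSD1cKO, near the floor on the mean level. Of 16 Hedgehog pathway genes, a list written after the values were seen, 9 passed the filter on low counts. Of the 7 tested besides Smo and Hhat, 0 were called lower or higher, against 0.532% of all tested genes called lower and 3% called higher in the same model, and all 7 had a log2 fold change below 0 with a median of -0.36, beside 59.1% of all genes tested below 0 and a median of -0.06. The ligand gene Shh was listed at 0 in every library, and Gli1 and Gli2, transcription factors of the pathway, stayed at or under 0.111 CPM.

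Tgfbr2, the type II receptor that binds TGF-β, had the highest mean level of the 66 genes, 234 CPM. LSD1WT libraries gave Tgfbr2 levels of 291 and 293 CPM in the mandible, 288 and 317 CPM in the ligated femur and 261 and 311 CPM in the unligated femur. Tgfbr2 in the LSD1cKO libraries was at 170.0 and 174 CPM in the mandible, 188 and 150.3 CPM in the ligated femur and 236 and 132 CPM in the unligated femur. The LSD1WT libraries lay close together, and the highest LSD1cKO value, 236 CPM, stood alone in the unligated femur. Tgfbr2 had a log2 fold change of -0.82 ± 0.16. Of the 12 other receptor, ligand, Smad and Ski genes of the pathway, listed after the values were seen, 0 passed the test in either direction, and all 12 were below 0, at a median of -0.42 on the log2 scale, beside 0.532% of all genes tested called lower, 3% called higher and 59.1% below 0. Tgfbr1, the partner receptor, ran from 175 to 1076 CPM in LSD1WT and from 260 to 645 CPM in LSD1cKO, so its groups overlapped.

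Il11ra1 encodes the receptor subunit that binds interleukin-11. Il11ra1 levels in LSD1WT were 23.4 and 24.6 CPM in the mandible, 26.8 and 20.9 CPM in the ligated femur and 28.8 and 19.9 CPM in the unligated femur. Il11ra1 levels in LSD1cKO were 13.0 and 12.5 CPM in the mandible, 15.8 and 15.1 CPM in the ligated femur and 15.1 and 14.5 CPM in the unligated femur. The groups did not overlap, and the LSD1WT femur libraries numbered 2, at 20.9 and 19.9 CPM, were the lowest of their group. Its near-identical copy Il11ra2 had a mean of 0.0063 CPM, and how reads that match both copies were counted is not given in the sources used here. Il11ra1 shares exon bases with Ccl27a of the other strand.

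Gpr176 encodes an orphan G-protein-coupled receptor. Gpr176 in LSD1WT stood at 3.61 and 3.49 CPM in the mandible, 4.12 and 3.51 CPM in the ligated femur and 3.93 and 4.60 CPM in the unligated femur. In LSD1cKO Gpr176 was at 1.53 and 1.95 CPM in the mandible, 1.97 and 1.41 CPM in the ligated femur and 3.11 and 2.27 CPM in the unligated femur. The unligated LSD1cKO library numbered 1 was the nearest to LSD1WT, at 3.11 CPM against 3.49 CPM. Gng7, a G-protein gamma subunit, ran from 5.45 to 8.09 CPM in LSD1WT and from 2.96 to 5.25 CPM in LSD1cKO.

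Stk17b, also called DRAK2, is a kinase of the death-associated family. LSD1WT libraries gave Stk17b levels of 185 and 181 CPM in the mandible, 149 and 274 CPM in the ligated femur and 135 and 147 CPM in the unligated femur. LSD1cKO values of Stk17b were 113 and 99.6 CPM in the mandible, 102 and 89.1 CPM in the ligated femur and 76.1 and 91.0 CPM in the unligated femur. The ligated femur LSD1WT library numbered 2 was highest, at 274.0 CPM, and the lowest LSD1WT value, in the unligated femur, was above the highest LSD1cKO value, in the mandible. Stk17b had a log2 fold change of -0.98 ± 0.16.

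Ptpn1 encodes PTP1B, a tyrosine phosphatase that acts on the insulin and leptin pathways. Ptpn1 levels in LSD1WT were 203 and 195 CPM in the mandible, 200.3 and 214 CPM in the ligated femur and 186 and 205 CPM in the unligated femur. Ptpn1 in the LSD1cKO libraries was at 140.2 and 136 CPM in the mandible, 137 and 124 CPM in the ligated femur and 171 and 104 CPM in the unligated femur. The LSD1cKO libraries of the unligated femur were the highest and the lowest of their genotype. Ptpn1 had a log2 fold change of -0.64 ± 0.14.

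Ppp1r9a, or neurabin, anchors protein phosphatase 1 to actin. Ppp1r9a in LSD1WT stood at 9.09 and 8.79 CPM in the mandible, 9.65 and 10.6 CPM in the ligated femur and 7.89 and 8.15 CPM in the unligated femur. Ppp1r9a levels in LSD1cKO were 4.13 and 4.81 CPM in the mandible, 6.09 and 4.33 CPM in the ligated femur and 4.97 and 3.12 CPM in the unligated femur. LSD1cKO levels were 50.7% of LSD1WT on average, with log2 fold changes of -1.07 in mandible, -1.07 in ligated femur and -1.03 in unligated femur cultures. Amigo1 is an adhesion protein with leucine-rich repeats. LSD1WT libraries gave Amigo1 levels of 7.68 and 8.53 CPM in the mandible, 9.50 and 10.7 CPM in the ligated femur and 9.31 and 13.1 CPM in the unligated femur. In LSD1cKO Amigo1 was at 5.80 and 6.92 CPM in the mandible, 4.80 and 4.06 CPM in the ligated femur and 6.52 and 6.31 CPM in the unligated femur. Its log2 fold changes were -0.42 in mandible, -1.30 in ligated femur and -0.85 in unligated femur cultures.

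Another 4 genes of intracellular signalling and the cytoskeleton were separated by a ratio under 1.1. Arhgap18, a GTPase-activating protein of the actin cytoskeleton, ran from 141 to 279.6 CPM in LSD1WT and from 100.3 to 135 CPM in LSD1cKO. Sipa1, a Rap GTPase-activating protein, ran from 142 to 175 and from 105 to 138 CPM. Prkab1, a regulatory subunit of the energy sensor AMPK, ran from 41.3 to 53.2 and from 37.3 to 39.8 CPM, and Mtss1, a membrane-bending actin regulator, from 173 to 227 and from 114 to 169 CPM.

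Hmgcs1 encodes an early enzyme of the mevalonate pathway, which makes HMG-CoA. Hmgcs1 levels in LSD1WT were 186 and 181 CPM in the mandible, 218 and 212 CPM in the ligated femur and 179 and 324 CPM in the unligated femur. LSD1cKO values of Hmgcs1 were 128 and 123 CPM in the mandible, 124 and 112 CPM in the ligated femur and 139 and 95.4 CPM in the unligated femur. The unligated femur LSD1WT library numbered 2, at 323.9 CPM, lay far above the others, and the 5 remaining LSD1WT libraries were still above all LSD1cKO libraries. Hmgcs1 had a log2 fold change of -0.92 ± 0.17.

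On a list of cholesterol and fatty acid synthesis genes made with earlier results of these data known, the 22 genes that were not among the 66 all had a log2 fold change below 0, with a median of -0.50, and 0 passed the test in either direction. Of all genes tested, 59.1% were below 0, 0.532% were called lower and 3% higher. Insig1, which holds the sterol sensor in the endoplasmic reticulum, had the lowest value, -1.04 ± 0.29 (adjusted p = 0.085 by edgeR's quasi-likelihood test). Cyp51, lanosterol demethylase, had -0.92 ± 0.34 (adjusted p = 0.192 in the same edgeR test), and Scd1, stearoyl-CoA desaturase, -0.01 ± 0.44. In these genes the groups overlapped, and the unligated femur LSD1WT library numbered 2 carried a summed level of 4820 CPM over the list, against an LSD1WT median of 2272 CPM and an LSD1cKO range of 1567 to 2342 CPM. The share of that library in the list's difference was not tested. These genes are plotted by library beside Hmgcs1.

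**Figure D2:**
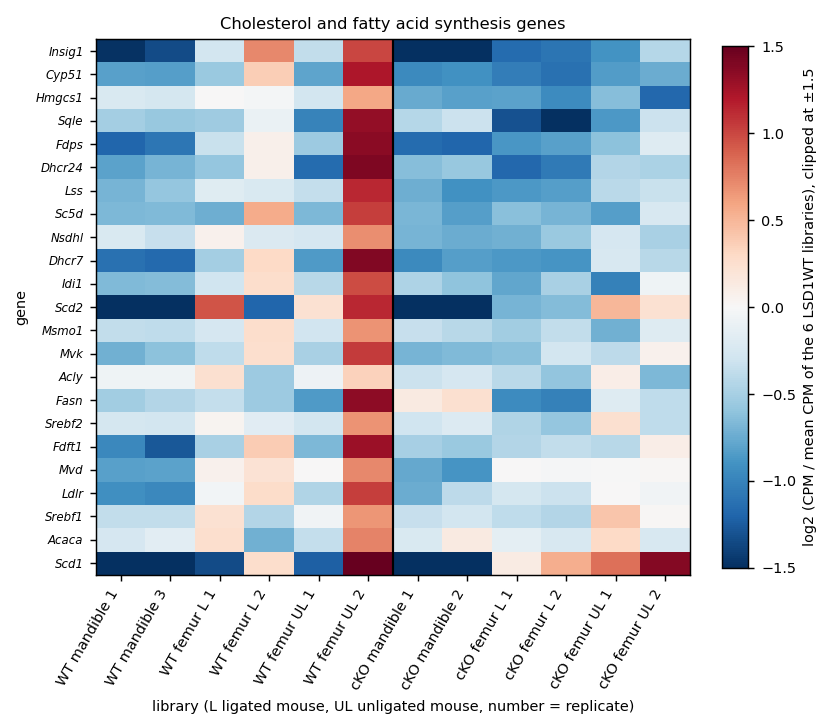
Each row is one of 23 genes of cholesterol and fatty acid synthesis, Hmgcs1 and 22 others, ordered by log2 fold change, and each column a library. Colour is the log2 ratio of the CPM to the mean of the 6 LSD1WT libraries, clipped at 1.5 either way. The WT femur UL 2 column is red in every row, and the other LSD1WT columns are mixed.

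Membrane traffic was served by 11 of the 66 genes. Plekhm1, an adaptor of late endosomes and lysosomes whose loss causes osteopetrosis through poor osteoclast resorption, had a mean of 212 CPM. Plekhm1 in LSD1WT stood at 239 and 245 CPM in the mandible, 246 and 271 CPM in the ligated femur and 240.1 and 259.6 CPM in the unligated femur. Plekhm1 in the LSD1cKO libraries was at 168 and 153 CPM in the mandible, 181 and 165 CPM in the ligated femur and 212 and 162 CPM in the unligated femur. LSD1WT values differed little across cultures and between the libraries rich and poor in osteoclast transcripts, and the log2 fold change was -0.61 ± 0.11. Vps33a, a core subunit of the HOPS tethering complex, to which Plekhm1 binds, ran from 96.5 to 148 CPM in LSD1WT and from 77.1 to 95.5 CPM in LSD1cKO, and lost its separation under TMM and RLE scaling. Of the 8 other HOPS subunits and partners tested, listed after the values were seen, 0 were called, beside 0.532% of all genes tested called lower and 3% higher, and 7 were below 0, beside 59.1% of all genes tested. Their median log2 fold change was -0.17. Vps39 had the lowest, -0.49 ± 0.16.

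Sft2d3, a small membrane protein of Golgi transport, was low. LSD1WT libraries gave Sft2d3 levels of 7.63 and 7.46 CPM in the mandible, 7.50 and 6.13 CPM in the ligated femur and 7.33 and 7.95 CPM in the unligated femur. Sft2d3 levels in LSD1cKO were 5.02 and 5.46 CPM in the mandible, 5.35 and 3.84 CPM in the ligated femur and 4.90 and 5.27 CPM in the unligated femur. The ligated femur library numbered 2 was the lowest of each genotype. Rab11fip3 binds the recycling endosome GTPase Rab11. Rab11fip3 levels in LSD1WT were 13.7 and 12.8 CPM in the mandible, 13.1 and 14.0 CPM in the ligated femur and 12.8 and 20.8 CPM in the unligated femur. In LSD1cKO Rab11fip3 was at 11.4 and 11.4 CPM in the mandible, 10.7 and 9.36 CPM in the ligated femur and 9.53 and 9.62 CPM in the unligated femur. Apart from the unligated femur LSD1WT library numbered 2, at 20.8 CPM, its LSD1WT levels lay within 12.8 to 14.0 CPM.

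Snx8, a sorting nexin, ran from 151 to 222 CPM in LSD1WT and from 122 to 139.9 CPM in LSD1cKO, and Scamp5, a carrier protein of secretory vesicles, from 71.0 to 101 and from 46.1 to 66.4 CPM. Chmp7, an ESCRT-III protein that seals the nuclear envelope, ran from 44.2 to 51.3 and from 36.5 to 42.7 CPM, and Eps15l1, an adaptor of clathrin endocytosis, from 71.7 to 82.3 and from 66.4 to 69.7 CPM, where the LSD1cKO mean was 89.8% of LSD1WT, the highest share of the 66. Aspscr1, or TUG, which tethers glucose transporter vesicles, ran from 39.7 to 48.3 and from 32.2 to 39.2 CPM. Evi5l, a Rab GTPase-activating protein, ran from 20.6 to 22.9 and from 11.8 to 19.8 CPM, and Zfyve21, an endosomal FYVE-domain protein, from 8.73 to 19.9 and from 5.83 to 8.42 CPM. In Zfyve21 and Snx8 the femur LSD1WT libraries numbered 2 were the highest.

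Among transporters, Slc7a4, a membrane protein related to cationic amino acid carriers, had a mean of 1.88 CPM. Slc7a4 in LSD1WT stood at 2.20 and 2.23 CPM in the mandible, 2.09 and 2.43 CPM in the ligated femur and 2.51 and 3.40 CPM in the unligated femur. LSD1cKO values of Slc7a4 were 0.781 and 1.53 CPM in the mandible, 1.18 and 1.19 CPM in the ligated femur and 1.52 and 1.5002 CPM in the unligated femur. The lowest LSD1cKO value, 0.781 CPM, was in the mandible, and the highest LSD1WT value, 3.40 CPM, in the unligated femur. Abcb9 is a peptide transporter of lysosomes. LSD1WT libraries gave Abcb9 levels of 2.78 and 3.23 CPM in the mandible, 3.57 and 3.04 CPM in the ligated femur and 3.74 and 2.80 CPM in the unligated femur. Abcb9 in the LSD1cKO libraries was at 2.12 and 1.72 CPM in the mandible, 1.93 and 2.08 CPM in the ligated femur and 2.49 and 1.62 CPM in the unligated femur. Its nearest values, 2.78 and 2.49 CPM, were in the mandible of LSD1WT and the unligated femur of LSD1cKO. Slc3a2, the CD98 heavy chain that pairs with amino acid carriers, ran from 154 to 346 CPM in LSD1WT and from 113 to 151 CPM in LSD1cKO, and the femur LSD1WT libraries numbered 2 held the 2 highest values, 261 and 346 CPM. Slc35b2, which carries the sulphate donor PAPS into the Golgi, ran from 74.3 to 101 and from 55.5 to 74.2 CPM and was almost at the boundary, with a ratio of 1.002. Mfsd11, of the major facilitator family, ran from 114 to 181 and from 73.0 to 108 CPM.

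Among enzymes of metabolism, P4ha2, a catalytic subunit of collagen prolyl 4-hydroxylase, had an LSD1cKO mean of 25.03% of the LSD1WT mean. P4ha2 levels in LSD1WT were 4.98 and 4.71 CPM in the mandible, 3.01 and 7.95 CPM in the ligated femur and 3.10 and 11.1 CPM in the unligated femur. P4ha2 levels in LSD1cKO were 1.08 and 1.82 CPM in the mandible, 1.61 and 1.15 CPM in the ligated femur and 1.42 and 1.65 CPM in the unligated femur. All 6 LSD1cKO libraries were within 1.08 to 1.82 CPM while LSD1WT spread from 3.01 to 11.1 CPM, highest in the femur libraries numbered 2. P4ha2 had a log2 fold change of -2.06 ± 0.36, and by culture -1.80 in mandible, -2.11 in ligated femur and -2.27 in unligated femur cultures. It was -1.38 without both femur LSD1WT libraries numbered 2.

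Tha1 encodes threonine aldolase, which splits threonine to glycine and acetaldehyde in mice. Tha1 in LSD1WT stood at 2.70 and 3.26 CPM in the mandible, 2.86 and 4.26 CPM in the ligated femur and 2.77 and 2.84 CPM in the unligated femur. In LSD1cKO Tha1 was at 1.90 and 1.202 CPM in the mandible, 1.61 and 1.41 CPM in the ligated femur and 1.35 and 1.38 CPM in the unligated femur. Its highest LSD1WT library was the ligated femur numbered 2, and the other 5 lay within 2.70 to 3.26 CPM. Tha1 had a log2 fold change of -1.15 ± 0.19. Mthfd2l is a mitochondrial enzyme of folate metabolism. LSD1WT libraries gave Mthfd2l levels of 6.39 and 7.35 CPM in the mandible, 7.16 and 7.39 CPM in the ligated femur and 7.00 and 8.23 CPM in the unligated femur. LSD1cKO values of Mthfd2l were 4.54 and 5.39 CPM in the mandible, 4.48 and 4.50 CPM in the ligated femur and 4.49 and 5.35 CPM in the unligated femur. LSD1cKO levels were 66.1% of LSD1WT on average.

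Fn3krp, a kinase that removes sugar adducts from proteins, had a log2 fold change of -0.69 ± 0.14. Fn3krp levels in LSD1WT were 8.46 and 9.61 CPM in the mandible, 10.5 and 9.12 CPM in the ligated femur and 10.4 and 9.11 CPM in the unligated femur. Fn3krp in the LSD1cKO libraries was at 6.36 and 5.17 CPM in the mandible, 7.67 and 5.30 CPM in the ligated femur and 6.80 and 6.15 CPM in the unligated femur. The nearest values of the genotypes were 8.46 CPM in the mandible of LSD1WT and 7.67 CPM in the ligated femur of LSD1cKO. Pepd, or prolidase, which releases proline from dipeptides, ran from 88.9 to 109.9 CPM in LSD1WT and from 57.6 to 85.8 CPM in LSD1cKO, and Hadh, a mitochondrial enzyme of fatty acid oxidation, from 62.3 to 78.9 and from 53.6 to 60.6 CPM.

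Pex6 encodes an ATPase that helps to pull the import receptor Pex5 out of the peroxisome membrane. Pex6 ran from 39.9 to 42.4 CPM in LSD1WT and from 24.7 to 38.5 CPM in LSD1cKO, with a log2 fold change of -0.57 ± 0.13. Of 11 peroxisome biogenesis genes outside the 66, listed after the values were seen, 0 were called, beside 0.532% of all genes tested called lower and 3% higher, and 9 were below 0, beside 59.1% of all genes tested. Their median was -0.18, with Pex5 at -0.38 ± 0.19. Pex6 lost its separation under TMM and RLE scaling.

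Among nuclear proteins, Six5, a homeobox transcription factor, led the order of separation at 1.701 and had the lowest mean level of the 66, 1.35 CPM. Six5 in LSD1WT stood at 1.41 and 1.37 CPM in the mandible, 1.29 and 2.39 CPM in the ligated femur and 2.17 and 3.60 CPM in the unligated femur. Six5 levels in LSD1cKO were 0.632 and 0.715 CPM in the mandible, 0.747 and 0.530 CPM in the ligated femur and 0.759 and 0.539 CPM in the unligated femur. LSD1WT libraries differed by more than LSD1cKO libraries, from 1.29 to 3.60 CPM against 0.530 to 0.759 CPM. The ratio rested on 34 against 22 reads, whose exact Poisson intervals overlapped, while those of P4ha2, the next in the order, were apart. Six5 had a log2 fold change of -1.65 ± 0.28, and by culture -1.11 in mandible, -1.64 in ligated femur and -2.19 in unligated femur cultures.

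Prmt9, a methyltransferase that acts on arginines of a splicing factor, had the tightest levels of the first 25 genes. LSD1WT libraries gave Prmt9 levels of 28.0 and 26.5 CPM in the mandible, 27.3 and 28.0 CPM in the ligated femur and 26.4 and 27.4 CPM in the unligated femur. In LSD1cKO Prmt9 was at 23.1 and 23.1 CPM in the mandible, 22.8 and 21.5 CPM in the ligated femur and 23.5 and 23.3 CPM in the unligated femur. The LSD1cKO mean was 84.0% of LSD1WT, a small difference, with a log2 fold change of -0.33 ± 0.08. Zfp704, a zinc finger protein, was the opposite, from 32.4 to 91.8 CPM in LSD1WT and from 14.5 to 30.2 CPM in LSD1cKO. The femur LSD1WT libraries numbered 2 gave its highest values, and it lost its separation under TMM scaling.

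Fam50a is a nuclear protein of the spliceosome. Fam50a levels in LSD1WT were 55.6 and 57.7 CPM in the mandible, 55.3 and 49.9 CPM in the ligated femur and 51.9 and 53.0 CPM in the unligated femur. LSD1cKO values of Fam50a were 41.5 and 41.5 CPM in the mandible, 44.5 and 40.1 CPM in the ligated femur and 41.5 and 34.9 CPM in the unligated femur. Levels were even within each genotype, and the log2 fold change was -0.49 ± 0.09. Cbx8, a Polycomb repressor subunit, ran from 6.95 to 10.998 and from 4.87 to 6.70 CPM. Gtf3c3, of the RNA polymerase III factor TFIIIC, ran from 40.2 to 45.1 and from 33.2 to 39.9 CPM, and Tox4, an HMG-box protein of a phosphatase complex, from 123 to 136 and from 95.1 to 121 CPM. Thap6, a THAP-domain protein, ran from 11.9 to 16.4 and from 8.92 to 11.1 CPM, and Mgmt, which repairs alkylated guanine, from 12.9 to 17.1 and from 9.84 to 12.5 CPM. Of the 13 other genes of LSD1 and CoREST complexes and of 56 chromatin writers, erasers and readers, lists without Cbx8 and Prmt9, 0 were among the 66. The share over the 12512 genes was 0.527%, so nothing is read from that 0. Of the 56, 1 was called lower, and of the 13, 1 was called higher, beside 0.532% and 3% of all genes tested.

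Ubiquitin and RNA handling took a further group. Btbd6 is a BTB-domain adaptor of cullin ubiquitin ligases. Btbd6 in LSD1WT stood at 12.3 and 11.2 CPM in the mandible, 11.2 and 11.1 CPM in the ligated femur and 11.6 and 12.9 CPM in the unligated femur. Btbd6 in the LSD1cKO libraries was at 7.96 and 7.51 CPM in the mandible, 6.80 and 6.93 CPM in the ligated femur and 8.25 and 7.50 CPM in the unligated femur. The ratio of lowest to highest was 1.344, the fifth in the order, with a log2 fold change of -0.72 ± 0.11. Topors, a ubiquitin and SUMO ligase, ran from 61.8 to 72.6 CPM in LSD1WT and from 51.1 to 59.1 CPM in LSD1cKO, and Usp28, a deubiquitinase, from 21.9 to 30.9 and from 16.9 to 20.8 CPM. Asb8, an adaptor of cullin ligases, ran from 40.4 to 48.6 and from 34.9 to 39.9 CPM, Mkrn2, a RING-finger ligase, from 23.0 to 30.1 and from 19.7 to 22.9 CPM, and Dcun1d1, which promotes neddylation of cullins, from 53.5 to 57.2 and from 42.2 to 53.4 CPM. Mkrn2, Slc35b2 and Dcun1d1 were the last to enter. Cpeb2, which binds polyadenylation elements of mRNAs, ran from 32.5 to 71.1 and from 21.5 to 32.3 CPM, Utp14b, of ribosomal RNA processing, from 11.7 to 25.7 and from 6.05 to 11.1 CPM, and Zcchc14, a zinc-knuckle protein, from 18.2 to 21.5 and from 10.995 to 17.0 CPM.

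Gkap1, an anchoring protein of cyclic GMP-dependent kinase, had a log2 fold change of -0.61 ± 0.16. LSD1WT libraries gave Gkap1 levels of 10.6 and 9.76 CPM in the mandible, 9.93 and 13.8 CPM in the ligated femur and 11.6 and 11.2 CPM in the unligated femur. Gkap1 levels in LSD1cKO were 8.74 and 7.99 CPM in the mandible, 7.94 and 6.76 CPM in the ligated femur and 8.77 and 6.23 CPM in the unligated femur. Maco1, or macoilin, a membrane protein of the endoplasmic reticulum, had -0.65 ± 0.13. Maco1 levels in LSD1WT were 48.8 and 52.5 CPM in the mandible, 57.2 and 50.2 CPM in the ligated femur and 48.6 and 62.2 CPM in the unligated femur. In LSD1cKO Maco1 was at 38.0 and 37.3 CPM in the mandible, 35.0 and 28.8 CPM in the ligated femur and 44.4 and 31.7 CPM in the unligated femur. In both genes the unligated LSD1cKO library numbered 1 was the nearest to LSD1WT. The gene listed as ENSMUSG00000121096, with no symbol and no RefSeq match, also stood among the first 25. ENSMUSG00000121096 in LSD1WT stood at 5.73 and 4.97 CPM in the mandible, 4.80 and 6.92 CPM in the ligated femur and 5.91 and 5.16 CPM in the unligated femur. LSD1cKO values of ENSMUSG00000121096 were 4.28 and 4.09 CPM in the mandible, 4.05 and 3.18 CPM in the ligated femur and 3.87 and 3.46 CPM in the unligated femur. Its ratio of lowest to highest was 1.121. Tmem87a, Gatd3a, Fam114a2, Natd1 and the pseudogene-named Tmem250-ps made up the rest, with levels in LSD1cKO of 75.7%, 74.3%, 87.1%, 62.2% and 76.0% of LSD1WT on average.

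**Figure D3:**
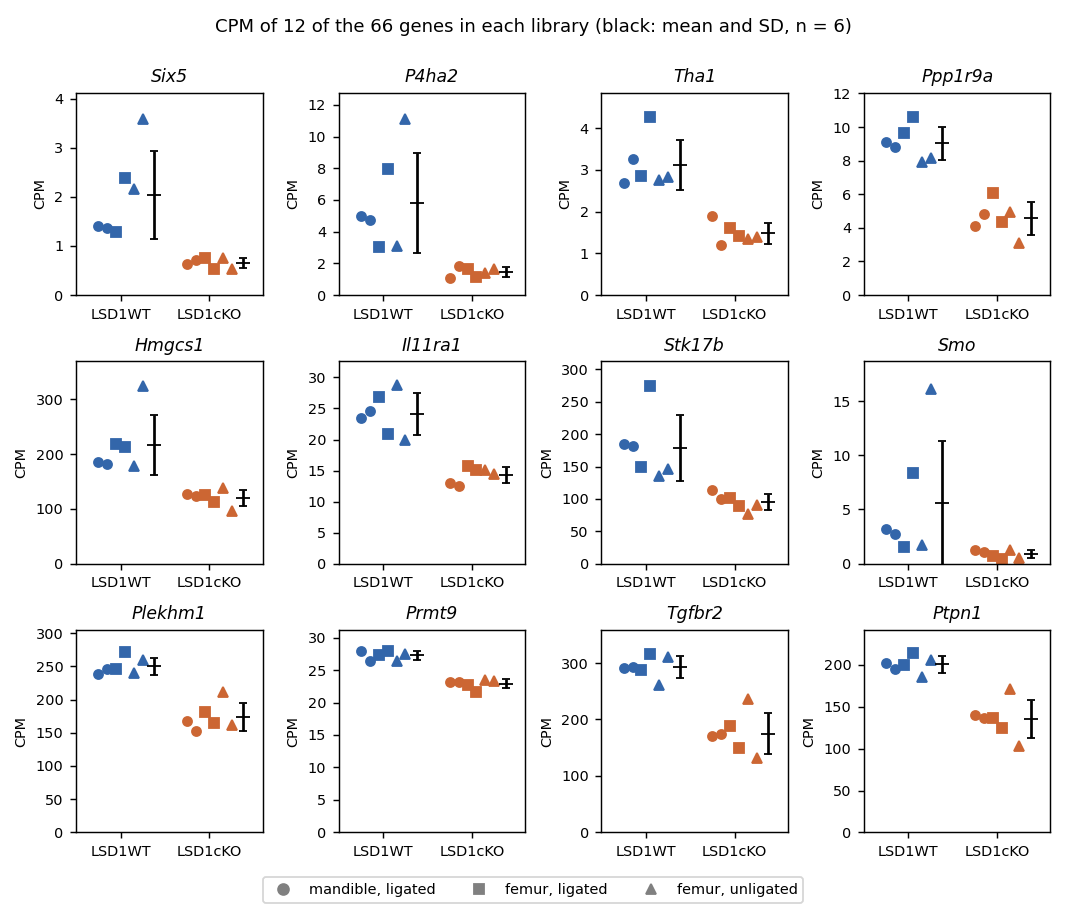
Levels in CPM of 12 of the 66 genes in each library, on axes that start at 0, with LSD1WT in blue, LSD1cKO in orange, marker shape for the culture, and the mean and SD of 6 libraries in black. In every panel the lowest blue point lies above the highest orange point, and as a ratio the gap is smallest in Ptpn1 and Tgfbr2 and largest in Six5 and P4ha2. The SD bar of Smo in LSD1WT runs past 0 and ends at the axis.

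At the boundary of the rule, Mkrn2, Slc35b2 and Dcun1d1 were just inside, with ratios of 1.004, 1.002 and 1.001, and Glyr1, Dolk and Cables1 just outside, with ratios of 0.999, 0.999 and 0.998. Near the floor on the mean level, Six5, Hhat and Slc7a4 were inside at 1.35, 1.63 and 1.88 CPM, and ENSMUSG00000120681, Ephb6 and Fam171a1, which were separated by genotype, were outside at 0.775, 0.679 and 0.643 CPM.

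Within a genotype the 66 genes varied less than most. The highest LSD1WT level was 1.34 times the lowest at the median of the 66 genes, against 2.19 times over all genes, and in LSD1cKO 1.38 times against 1.74 times. The rule favours a small spread, so this is no finding. Both femur LSD1WT libraries numbered 2 were above the other 4 LSD1WT libraries in 25 of the 66 genes, or 37.9%, against 30.4% of all genes, and below them in 6, or 9.09%, against 32.6%, a difference that the rule also shapes. Smo was 5.33 times, P4ha2 2.41 times, Zfp704 2.31 times and Zfyve21 2.00 times higher in these libraries than in the mean of the other 4. Il11ra1, Cbx8, Tmem250-ps, Asb8, Gtf3c3 and Dcun1d1 were the 6 that lay below. The library that came nearest to LSD1WT was the unligated femur LSD1cKO library numbered 1, which held the highest LSD1cKO level of 29 of the 66 genes. The median over the 66 genes of the log2 level relative to the LSD1WT mean was -0.32 in that library and between -0.45 and -0.62 in the other 5 LSD1cKO libraries.

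The size of the difference between genotypes was also read by culture. The median log2 fold change of the 66 genes was -0.48 in mandible cultures, and for the femur it was -0.73 after ligature and -0.57 without it, where all genes tested had medians of 0.00, -0.12 and -0.05. All 66 were below 0 in each culture, as the rule fixes for the levels. Over the 3 cultures together the median was -0.61 against -0.06 for all 15425 genes tested, and the values ran from -2.64 for Smo to -0.24 for Eps15l1.

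**Figure D4:**
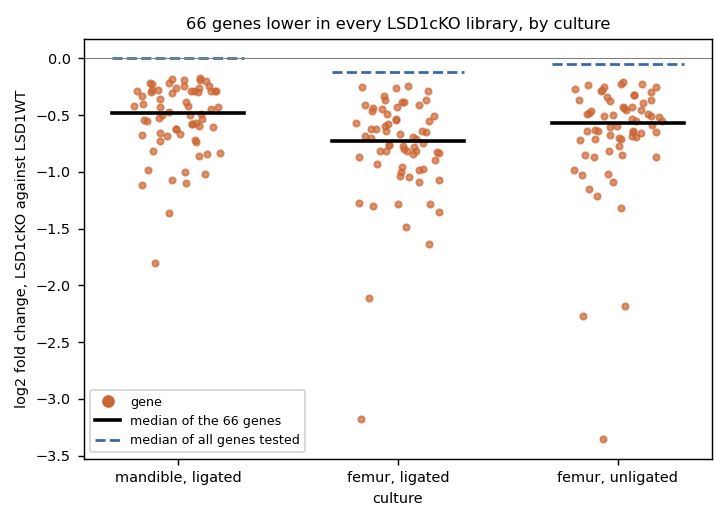
Each point is one of the 66 genes, with the culture on the x axis and the log2 fold change of LSD1cKO against LSD1WT on the y axis. Black bars are medians of the 66 genes, at -0.48, -0.73 and -0.57, and dashed bars are medians of all genes tested. The lowest point in the 2 femur cultures is Smo.

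Whether the genotype difference varied between cultures, and whether the genes differed between cultures of one genotype, was tested, since the rule used neither contrast. In each of the 6 contrasts 0 of the 66 genes passed an adjusted p of 0.05 in edgeR's quasi-likelihood test, and 0 did in DESeq2. In edgeR the background was 0% in all 6, so that its tests called no gene at all with 2 libraries a group. A p that misses the threshold does not show that the levels were alike. The share over all genes was not counted in DESeq2, so nothing is read from its counts of the 66, here or below. The rule favours genes that vary little within a genotype, so a low count among the 66 was to some degree set by it.

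Between mandible and femur of ligated LSD1WT mice, 3 of the 66 genes had an unadjusted p under 0.05, or 4.55%, against 19.8% of all genes tested, and DESeq2 gave 5. They were Arhgap18 with a log2 difference of -0.80 ± 0.28, Mfsd11 with -0.55 ± 0.21 and Scamp5 with -0.44 ± 0.19, and their adjusted p was 0.203, 0.215 and 0.248 in edgeR. The median difference of the 66 was -0.24, against -0.03 over all genes tested. Levels were lower in the mandible in 63 of 66, while 48.1% of all genes tested were higher there. Since the ligated femur LSD1WT library numbered 2 was poor in osteoclast transcripts, site and osteoclast content cannot be told apart in this contrast. Without the ligated femur LSD1WT library numbered 1, Mfsd11, Zfyve21, Stk17b, Arhgap18 and Zfp704 were called lower in the mandible, 5 of the 66 among 23.2% of all genes tested. In LSD1cKO, 1 gene had an unadjusted p under 0.05, against 15% of all genes tested, and DESeq2 gave 2. It was Scamp5, with -0.51 ± 0.19 (adjusted p = 0.262 in edgeR), followed by Mfsd11 with -0.47 ± 0.21 and Evi5l with 0.43 ± 0.24, and the median of the 66 was -0.01. Fitted on these 4 libraries alone, with the mouse as a block, Evi5l, Mfsd11 and Scamp5 were called, 3 of the 66 among 38.2% of all genes tested, with edgeR adjusted p of 0.0418, 0.0195 and 0.0114.

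Between ligated and unligated mice, in femur cultures of LSD1WT, Stk17b had a log2 difference of 0.66 ± 0.28 and was the 1 gene of the 66 with an unadjusted p under 0.05, against 0.765% of all genes tested, and its adjusted p was 1.0 in edgeR. Tmem87a with 0.31 ± 0.19 and Natd1 with 0.40 ± 0.30 came next. In LSD1cKO, 0 of the 66 had an unadjusted p under 0.05, against 0.959%, and Utp14b with -0.77 ± 0.35, Gpr176 with -0.68 ± 0.35 and Amigo1 with -0.54 ± 0.28 had the smallest p. The medians of the 66 genes were 0.06 and -0.05.

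When the genotype difference of the mandible was set against that of the ligated femur, 0 of the 66 had an unadjusted p under 0.05, against 0.966% of all genes tested, with 1 in DESeq2. The genotype difference was nearer to 0 in the mandible in 59 of the 66 genes, where 57.3% of all genes tested had a difference above 0. The median difference was 0.24, against 0.09 over all genes tested. Amigo1 had the smallest p, with 0.88 ± 0.39, followed by Evi5l with 0.50 ± 0.33 and Utp14b with 0.71 ± 0.49. For ligated against unligated femur, 0 of the 66 had an unadjusted p under 0.05, against 0.344%. The genotype difference was lower in the ligated femur in 48 of the 66, while 41.0% of all genes tested had a difference above 0. The median difference was -0.15 against -0.06. Natd1 with -0.57 ± 0.43, Tmem250-ps with -0.32 ± 0.26 and Gpr176 with -0.58 ± 0.49 had the smallest p. Each of these differences shares its ligated femur libraries with the others. The ligated femur LSD1WT library numbered 2 was poor in osteoclast transcripts, so site and osteoclast content cannot be told apart in the difference between mandible and femur. The rule chose the genes by levels that enter both differences, so nothing is read from the counts of 59 and 48.

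Other transcripts that moved with genotype are given beside these results for the same libraries. Summed over 8 stem and progenitor markers, the level was 19.3 to 45.1 CPM in LSD1WT and 141 to 298 CPM in LSD1cKO. Of the 8, 1 was called higher, beside 3% of all genes tested, and 3 were below 0, beside 59.1%. The list's median log2 fold change was 0.49. Ly6a, which encodes Sca-1, was the 1 marker higher in every LSD1cKO library, and 0 of the 66 genes were on the list. Over 22 interferon response genes, 15 were called higher in LSD1cKO, beside 3% of all genes tested, and the summed level was 101 to 1383 CPM in LSD1WT and 213 to 3963 CPM in LSD1cKO. Of the 20 osteoclast genes 0 were called in either direction, beside 0.532% of all genes tested called lower and 3% higher. On this list 15 genes were below 0, beside 59.1% of all genes tested, and the median was -0.24 on the log2 scale. Cd9, a tetraspanin of cell fusion, was higher in every LSD1cKO library. Both femur LSD1WT libraries numbered 2, poor in osteoclast transcripts, were part of this test. Without them, 10 of the 20 were among the 748 genes that met the rule, where 12512 genes passed the floor with all 12 libraries in. Megakaryocyte markers summed to 826 and 424 CPM in the femur LSD1WT libraries numbered 2, against 17.5 to 65.3 CPM in LSD1cKO. Of markers of other cell types, 1 of 8 B cell genes, Igll1, and 1 of 9 T and NK cell genes, Gzma, were at 0 in every library. So were 2 of 8 erythroid genes, Slc4a1 among them, and 2 of 9 mast cell and basophil genes, Mcpt4 and Cma1. The lists as wholes were not at 0. Their summed levels reached 10.2 CPM for B cells, 16.4 CPM for T and NK cells, 3.23 CPM for erythroid cells and 5.76 CPM for mast cells. Neutrophil genes summed to 122 to 381 CPM in LSD1WT and 163 to 350 CPM in LSD1cKO, and dendritic cell genes to 44.3 to 132 and 60.8 to 269 CPM. The part of these cells in the 66 differences was not tested. The remaining lists cover neutrophils, dendritic cells, megakaryocytes, stromal cells, RANK and M-CSF signalling, repressors of osteoclast differentiation, the cell cycle, glycolysis and the actin ring. Of their genes 0 were among the 66, beside 0.527% of the 12512 genes, and nothing is read from such counts of 0.

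The position of the genes was read from RefSeq on GRCm38.p6 for the 65 that matched, of which 64 are protein-coding. Chromosome 11 held 9 of them, or 0.903% of its 997 genes with a mean CPM of at least 1, and chromosome 5 held 8, or 1.03% of 776. Mfsd11, Tha1, Cbx8, Aspscr1 and Fn3krp lie within 5 Mb of one another on chromosome 11, in a span of 86 expressed genes whose other members had a median log2 fold change of -0.16. Maco1 was the only one of the 66 within 5 Mb of Kdm1a on chromosome 4, with 25 expressed genes between them. The 127 expressed genes in that stretch had a median of -0.10. Near Lyz2, the gene into which the Cre is inserted, 0 of the 66 genes lay within 5 Mb. The genes of the 66 had a median length of 31.0 kb, against 21.5 kb over all expressed genes that matched.

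In 8 of the 66 genes some exon bases are shared with another gene of mean CPM of at least 1. For 7, the other gene is on the opposite strand, Mkrn2 being one of them, and the named pairs are Tox4 with Rab2b and Mettl3, Topors with Smim27, Zcchc14 with Map1lc3b, Il11ra1 with Ccl27a and Thap6 with Rchy1, and Utp14b overlaps Acsl3 on its own strand. The strand setting of the counting is not given in the sources used here, so reads of these pairs cannot be told apart.

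The rule was also run with libraries left out. Apart from the floor on the mean level, fewer libraries can only loosen the separation. The 66 genes thus stayed in by construction and the counts could only rise, so this does not test the 66. Leaving out any 1 library gave 70 to 170 genes. The unligated femur LSD1cKO library numbered 1 alone gave 170, and the unligated femur LSD1WT library numbered 2 gave 100. With libraries scaled by TMM, 60 genes met the rule, and 44 of these were among the 66. With RLE factors it was 102 genes, with 52 shared. The first 25 genes in the order of separation were kept by both scalings. Among the 22 that lost the separation under TMM were Mkrn2, Pex6, Eps15l1, Slc3a2, Vps33a, Dcun1d1, Zfp704, Hhat, Arhgap18, Scamp5 and Gng7. So were Sipa1, Hadh, Tox4, Chmp7, Aspscr1, Natd1, Gatd3a, Fam114a2, Zcchc14 and Utp14b.

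**Figure D5:**
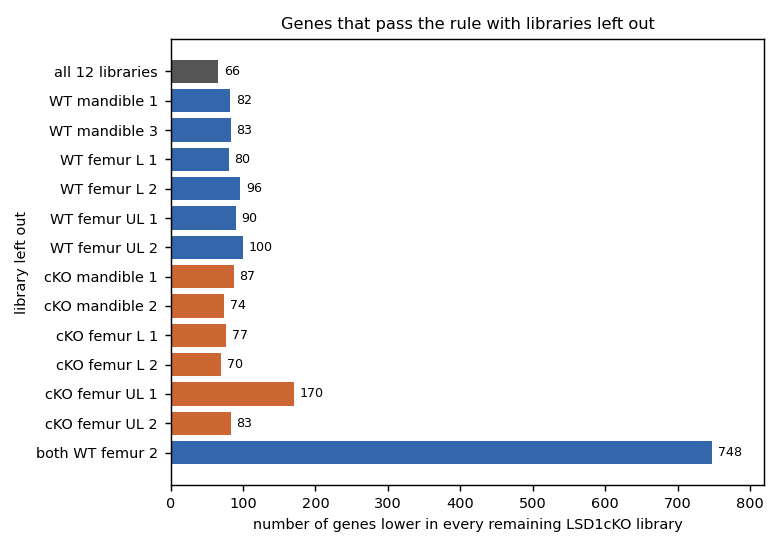
Bars give the number of genes that met the rule when the library named on the y axis was left out, with the full set of 12 libraries on top. The count is 66 with all libraries, 70 to 170 with 1 library left out, and 748 without both femur LSD1WT libraries numbered 2.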

How the data were processed

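Read counts per gene were deposited by the authors for 12 libraries, 2 in each of 6 groups, as whole numbers with no normalization, for 57010 Ensembl genes. The submitters' processing notes name FastQC, HISAT2 2.1.0, featureCounts, edgeR and the build GRCm39, and the annotation release and strand setting are not given in the sources used here. CPM was computed from total counts. In R 4.3.3 with edgeR 4.0.16, 15425 genes passed filterByExpr, counts were scaled by TMM, and quasi-likelihood models were fitted, 1 with culture and genotype as terms and 1 with a coefficient for each of the 6 groups. The Benjamini-Hochberg adjustment was run over all genes tested, with a threshold of 0.05. DESeq2 1.42.0 was an alternative. Total counts of 21375805 to 32526751 set the counting precision, given as exact Poisson intervals. The labels do not say that the libraries of a group are separate cultures beyond naming mice, so p-values measure the spread between these libraries.

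The mandible LSD1WT libraries differed by a median chi-square of 0.709 per gene, where counting alone gives 0.455 and other pairs gave 2.61 to 56.5. The pair thus differed by little more than counting error, and whether it came from separate cultures is not known. It was kept as 2 libraries because the labels name 2 mice, and summed into 1 library it gave 87 genes by the rule. Replicate numbers mark the same mouse in LSD1cKO mandible and ligated femur, and the differences between these mice correlated at 0.026 between the sites.

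Genes were named by their order of separation, the first 25 with every value, and by their lists, mean level, position and smallest p in each contrast. The 66 genes and the lists were chosen with earlier results of these data known, and 4 lists (Hedgehog, TGF-β, HOPS and peroxisome biogenesis) and the role groups were written after the values were seen. The models were also run on simulated counts with known changes, in which no library stood apart from its group, and no result here rests on that run. Positions, promoters and gene lengths came from RefSeq on GRCm38.p6, and exon overlap from GENCODE. Other assays of the study were not analysed here. The values of 2 of the 66 genes are not reported here singly, but both enter the counts and medians.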

Additional observations from a re-analysis of the deposited data

Results flagged for a closer look

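In each genotype, the highest or lowest of 6 libraries was set against the others for the 25 genes given in full, 50 groups in all. A library was called apart when its gap to the nearest other library was too large a share of the group's whole range by Dixon's 95% criterion, and 8 were. The criterion assumes 6 like libraries, but each group pooled 3 cultures. The 25 genes were also chosen by their highest and lowest levels. The criterion's nominal 5% therefore does not hold here, and nothing is read from the count of 8. Hmgcs1 reached 323.9 CPM and Slc7a4 3.40 CPM in the unligated femur LSD1WT library numbered 2, which also held Rab11fip3 at 20.8 CPM. Stk17b reached 274.0 CPM and Tha1 4.26 CPM in the ligated femur LSD1WT library numbered 2, where Sft2d3 was lowest at 6.13 CPM. In LSD1cKO, the ligated femur library numbered 2 held the lowest Sft2d3, 3.84 CPM, and the lowest Prmt9, 21.5 CPM. In 6 of the 8 cases the library was a femur LSD1WT library numbered 2, both of which were poor in osteoclast transcripts.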

How the results depend on the processing

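The number of genes that met the rule was 57 with a mean CPM of at least 5, 79 with no floor, 60 with TMM scaling and 87 with the mandible LSD1WT libraries summed. It was 102 with RLE factors and 2 when the lowest LSD1WT level had to be 1.5 times the highest LSD1cKO level. Leaving out 1 library gave 70 to 170 genes, with 100 without the unligated femur LSD1WT library numbered 2, and 170 without the unligated femur LSD1cKO library numbered 1. Leaving out both femur LSD1WT libraries numbered 2, an alternative chosen after seeing the data, gave 748. Since fewer libraries can only loosen the separation, the 66 genes are among the 748 by construction, and nothing is read from their being kept. The median log2 fold change of the 66 genes, -0.61, lay between -0.50 and -0.62 with 1 library left out and was -0.50 without both femur LSD1WT libraries numbered 2. The cause of these changes was not tested.

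Replicate 1 minus replicate 2 correlated over genes at 0.780 between the ligated and unligated femur of LSD1WT and at 0.224 in LSD1cKO, groups of different mice that share only a number. With the replicate number as a block over the 12 libraries, the median was -0.62 and 0 of the 66 genes were called in each of the 6 contrasts. With the mouse as a replicate block in the 4 LSD1cKO libraries of mandible and ligated femur alone, 3 were called, Evi5l, Mfsd11 and Scamp5, among 38.2% of all genes tested. Without the block, those 4 libraries alone gave 5, which were these and Cbx8 and Il11ra1, among 42.1%. Without the ligated femur LSD1WT library numbered 1, 5 were called between mandible and femur in LSD1WT, Mfsd11, Zfyve21, Stk17b, Arhgap18 and Zfp704, among 23.2% of all genes tested, where the femur side rested on 1 library, the ligated femur LSD1WT library numbered 2, assumed to vary like the other groups. Leaving out any other library called 0 in that contrast. Apart from mandible against femur in LSD1WT and in LSD1cKO, the contrasts had 0 calls among the 66 under every alternative run. In the main edgeR fits they had 0% of all genes tested, so nothing is read from these counts of 0.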
